A study of Mus musculus with 4 samples.

Results

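Brown fat fate factors are transcriptional regulators that set or hold the thermogenic program of fat cells, and the 7 genes described here are *Prdm16*, *Ebf1*, *Ebf2*, *Ebf3*, *Zfp516*, *Ehmt1* and *Tle3*. They were chosen by name, and each was measured through the peaks that overlap its gene body or the 2000 bases upstream of it. All 7 had such peaks, among 17173 genes with at least 1 peak. Together they held 289 of the 189598 peaks: *Ebf1* had 109, *Prdm16* 55, *Ebf2* 39, *Ebf3* 27, *Ehmt1* 23, *Tle3* 21 and *Zfp516* 15. Most of these lay in introns, 107 of those of *Ebf1* and 52 of those of *Prdm16*. In mm10, *Prdm16* lies at chr4:154316125-154636873 (minus strand), *Ebf1* at chr11:44617317-45008091 (plus), *Ebf2* at chr14:67233292-67430918 (plus) and *Ebf3* at chr7:137193673-137314445 (minus). *Zfp516* lies at chr18:82910663-83005314 (plus), *Ehmt1* at chr2:24789928-24919614 (minus) and *Tle3* at chr9:61372366-61418497 (plus).

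The study profiled open chromatin by single nucleus ATAC-seq, in which a transposase cuts accessible DNA, in inguinal white adipose tissue (iWAT) of male C57BL/6 mice aged 8 weeks. Mice were kept at 22 °C (day0RT), moved to cold at 6.5 °C for 1, 3 or 7 days (day1C, day3C, day7C), or given CL-316,243 (CL), a β3-adrenergic receptor agonist, at 1 mg/kg for 1, 3 or 7 days (day1CL, day3CL, day7CL). Each of the 7 groups held 3 mice, and the 12 cell types are those of the authors' annotation. No transgene or Cre line was involved, and all groups share strain, sex and age.

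PRDM16 is a zinc finger coregulator that promotes brown and beige fat genes and represses muscle and white fat genes, and EHMT1 is a histone H3 lysine 9 methyltransferase found in its complex. EBF2 is an early B cell factor that marks brown and beige precursors and helps PPARγ, the master regulator of fat cells, bind brown fat genes, while EBF1 and EBF3 are close relatives and EBF1 is also required to make B cells. ZFP516 is a zinc finger activator of brown fat genes, and TLE3 is a Groucho family corepressor that opposes PRDM16 at PPARγ and favours the white program.

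The 32552 nuclei came from 21 mice, with 1111 to 2021 nuclei and 1340376 to 6916698 counts per mouse, where a count is a nucleus with a read in a peak. Lymphocytes were the largest class in most mice. They were 11.9%, 14.1% and 36.8% of the nuclei in day1CL mouse 3, day3CL mouse 2 and day3C mouse 1, which therefore stand apart, and 58.2% to 90.8% in the other mice. In day1CL, mouse 1 held 29 adipocyte nuclei and mouse 2 held 68, and the highest number in a mouse was 933. Barcode sequences recurred between mice for 8739 nuclei. The cluster labelled VSMC had a summed level of 506 CPM (counts in the peaks of a gene as a share of all counts of the library, scaled to 1e6) over 6 skeletal muscle markers with a peak and 90.7 CPM over 5 mural markers, so its label was not borne out and it is called the VSMC-labelled cluster below. The 6 adipocyte markers summed to 1486 CPM in white and 1463 CPM in beige adipocytes against 176 CPM in B cells, and the 5 beige markers to 588 CPM in beige against 270 CPM in white adipocytes. The 6 progenitor markers summed to 558 CPM in adipocyte progenitor cluster 1 (APC1) and to 207 CPM in APC2, below the 237 CPM of CD8 T cells, whereas the mural markers were highest in APC2, at 543 CPM.

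The following stretches are shown because the results turn on the peaks they come from. They are plus strand GRCm38 (mm10) sequence from the RefSeq assembly, taken from the middle of each peak or, at *Tle3*, from the longest stretch without an exon. The *Tle3* stretch is the part of the peak over the gene start that lies directly upstream of that start and does not contain it. Capitals mark a match to the EBF palindrome TCCCNNGGGA, where N is any base.
Tle3, around the gene start, chr9:61372194-61372365: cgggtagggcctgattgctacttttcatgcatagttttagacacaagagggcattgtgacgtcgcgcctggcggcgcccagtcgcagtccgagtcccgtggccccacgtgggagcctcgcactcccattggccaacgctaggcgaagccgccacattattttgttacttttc
Ebf1, highest peak in B cells, intron, chr11:44764756-44765055: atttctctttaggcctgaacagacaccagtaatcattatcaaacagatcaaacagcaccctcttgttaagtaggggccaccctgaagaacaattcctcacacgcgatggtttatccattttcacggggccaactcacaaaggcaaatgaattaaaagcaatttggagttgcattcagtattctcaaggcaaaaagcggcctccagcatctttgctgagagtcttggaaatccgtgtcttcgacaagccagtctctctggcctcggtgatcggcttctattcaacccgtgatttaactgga
Ebf1, highest peak in white adipocytes, intron, chr11:44665679-44665978: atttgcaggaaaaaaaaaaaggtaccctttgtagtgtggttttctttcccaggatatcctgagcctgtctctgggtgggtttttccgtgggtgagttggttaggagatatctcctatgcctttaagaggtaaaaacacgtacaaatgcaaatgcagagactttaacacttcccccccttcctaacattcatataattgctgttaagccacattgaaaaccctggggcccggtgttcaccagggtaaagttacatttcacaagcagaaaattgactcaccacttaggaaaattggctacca
Ebf2, highest peak in beige adipocytes, intron, chr14:67415343-67415642: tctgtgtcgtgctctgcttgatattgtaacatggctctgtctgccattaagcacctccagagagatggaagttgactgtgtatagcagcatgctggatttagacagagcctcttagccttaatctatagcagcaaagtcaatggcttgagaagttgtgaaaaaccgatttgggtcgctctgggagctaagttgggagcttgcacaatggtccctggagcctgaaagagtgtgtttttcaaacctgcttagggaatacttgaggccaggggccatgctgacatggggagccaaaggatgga
Ebf2, highest peak in APC1, intron, chr14:67357688-67357987: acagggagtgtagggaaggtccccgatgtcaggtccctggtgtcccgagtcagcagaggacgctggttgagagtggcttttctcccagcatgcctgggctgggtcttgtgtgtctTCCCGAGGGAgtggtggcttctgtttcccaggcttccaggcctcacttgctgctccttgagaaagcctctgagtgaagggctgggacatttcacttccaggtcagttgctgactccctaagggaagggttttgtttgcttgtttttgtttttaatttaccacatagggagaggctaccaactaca
Prdm16, highest peak in beige adipocytes, intron, chr4:154581261-154581560: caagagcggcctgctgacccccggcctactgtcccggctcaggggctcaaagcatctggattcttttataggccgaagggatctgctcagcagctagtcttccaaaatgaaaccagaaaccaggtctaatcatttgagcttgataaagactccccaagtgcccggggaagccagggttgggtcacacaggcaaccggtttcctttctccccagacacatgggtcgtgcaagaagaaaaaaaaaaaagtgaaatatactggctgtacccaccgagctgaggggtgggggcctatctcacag
Of these stretches, the *Ebf2* one from the APC1 peak holds the palindrome. Within the central 300 bases it occurred in 3 of 39 *Ebf2* peaks, in 1 of 23 *Ehmt1* peaks and in none of the peaks of the other members, 1.38% of the 289 member peaks against 1.46% of all peaks. The palindrome reads the same on both strands. The PPAR direct repeat AGGTCANAGGTCA, searched on both strands, was in no member peak and in 0.0970% of all peaks. A match is a string of letters and not a bound site.

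Across cell types the members fell into genes with their highest mean in beige adipocytes, a gene with its highest mean in B cells, and genes open nearly everywhere. The first 2 kinds were not confined to these cells. *Ebf1* stood at 662, 559 and 530 CPM and *Ebf3* at 227, 207 and 222 CPM in APC1, APC2 and endothelial cells. *Prdm16*, *Ebf2* and *Ebf3* were highest in beige adipocytes and low in lymphocytes, *Ebf1* was highest in B cells with white adipocytes next, and *Zfp516*, *Ehmt1* and *Tle3* were measured in all 12 cell types. Levels are CPM, the counts in a member's peaks per 1e6 counts in all peaks of the same mouse and cell type, as mean ± SD over mice with at least 10 nuclei. A lower level in such sums can come from fewer open nuclei or from less signal per nucleus, and these cannot be told apart. The clusters were made from these same counts, so the order over cell types is a description.

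**Figure D1:**
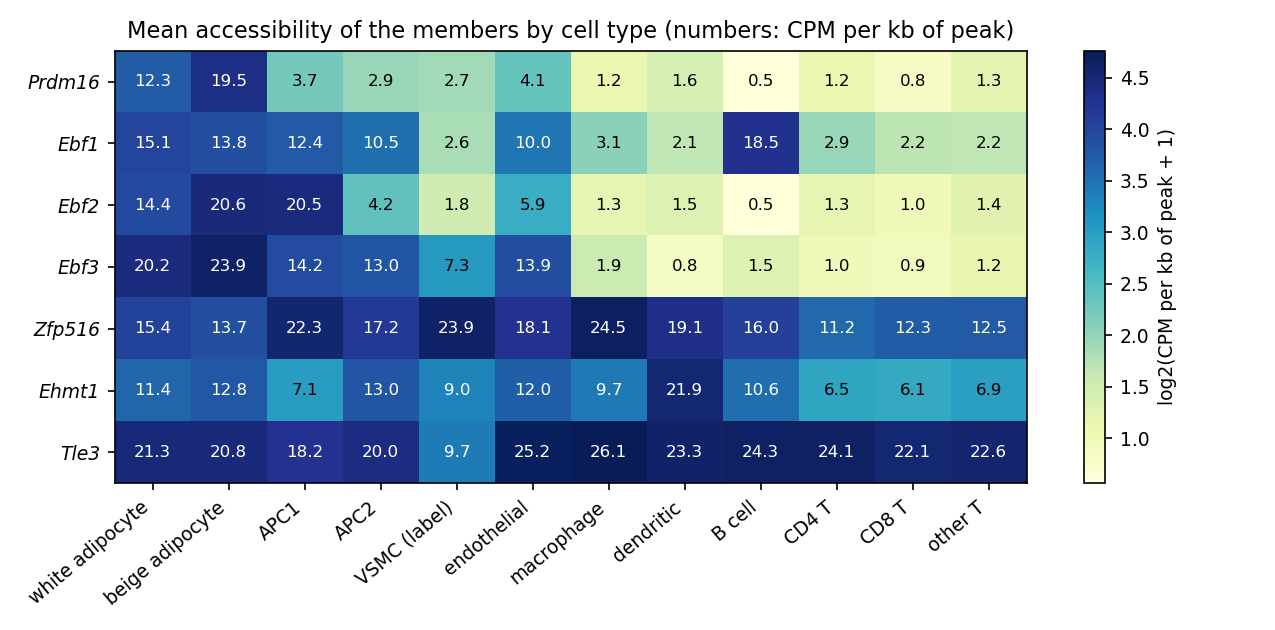
Mean level of each member (rows) in the 12 annotated cell types (columns), in CPM per kb of peak, with colour on a log2(value + 1) scale and the value printed in each cell. *Prdm16* stands at 19.5 in beige and 12.3 in white adipocytes against 0.477 in B cells, *Ebf1* reaches 18.5 in B cells, and *Tle3* lies at 18.2 or above except in the VSMC-labelled cluster.

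*Prdm16* reached 539 ± 93.8 CPM in beige adipocytes (n = 19 mice) and 339 ± 50.4 CPM in white adipocytes (n = 21). Endothelial cells followed at 113 ± 69.3 CPM (n = 15), APC1 at 101 ± 54.4 CPM (n = 20) and APC2 at 79.8 ± 50.7 CPM (n = 19). The 2 gaps at the top exceeded the larger SD of the neighbours, while endothelial cells, APC1 and APC2 lay within their spread. In B cells *Prdm16* stood at 13.2 ± 7.69 CPM (n = 21), and on average over mice 1.36% of B cell nuclei had a count in its peaks against 69.4% of beige and 50.4% of white adipocyte nuclei, with median depths of 974, 3087 and 2561 counts per nucleus. Of its 55 peaks, 42 were highest in beige adipocytes. The highest was the intronic peak shown above, 55463 bases into the gene, with 37.9 ± 9.92 CPM in beige adipocytes and 26.1 ± 7.79 CPM in the white ones.

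*Ebf1* gave 986 ± 68.5 CPM in B cells (n = 21), 806 ± 78.5 CPM in white and 737 ± 62.9 CPM in beige adipocytes. APC1 had 662 ± 140 CPM, APC2 559 ± 66.2 CPM and endothelial cells 530 ± 288 CPM, and dendritic cells were lowest at 114 ± 45.4 CPM. The gap between B cells and white adipocytes exceeded their spread, and the white and beige levels did not differ by more than it. The share of nuclei with a count, as a mean over mice, gave another order, 80.2% in beige adipocytes against 60.2% in B cells, which had fewer counts per nucleus.

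The levels of *Ebf1* in B cells and in white adipocytes came from largely different peaks. With a floor of 10 CPM, 27 of its 109 peaks were open in white adipocytes and 26 in B cells, and 9 were shared, 33.3% of the first set and 34.6% of the second. White and beige adipocytes shared 22 of 27 and 25 peaks. Over the 109 peaks log2 levels correlated at r = 0.19 between white adipocytes and B cells and at r = 0.90 between white and beige adipocytes, a description over peaks of 1 gene in the same mice. The intronic peak 147588 bases into the gene stood at 118 ± 19.6 CPM in B cells and 8.35 CPM in white adipocytes. The intronic peak 48511 bases in stood at 40.3 ± 7.10 CPM in white and 50.8 ± 24.4 CPM in beige adipocytes. The peak over the gene start was open in both, at 87.6 CPM in B cells and 33.5 CPM in white adipocytes.

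**Figure D2:**
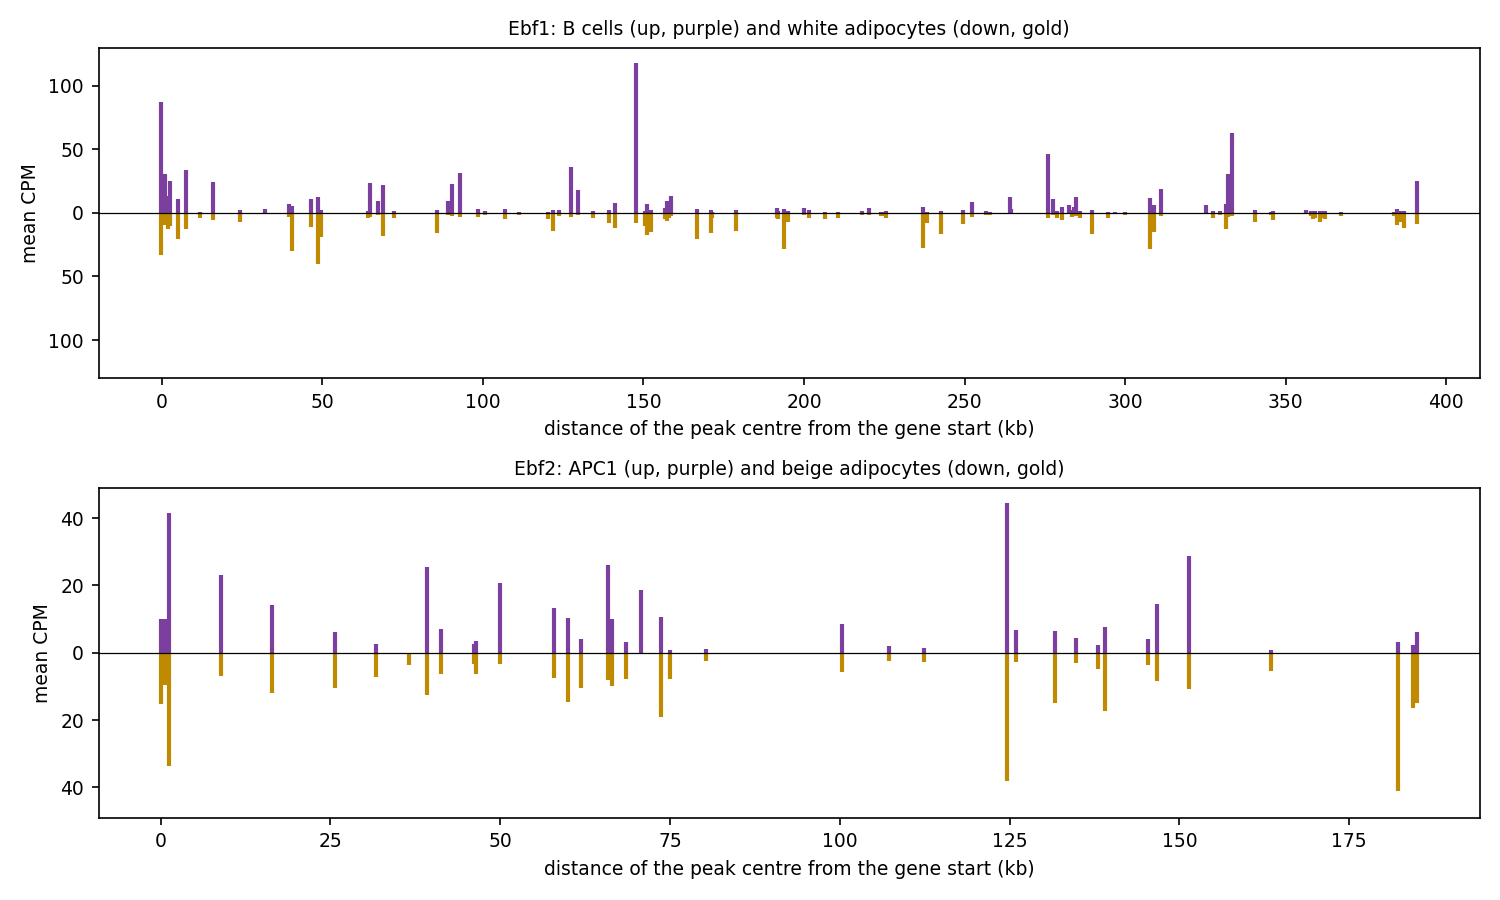
Mean CPM of every peak of *Ebf1* (top) and *Ebf2* (bottom) against the distance of its centre from the gene start in kb, with 1 cell type drawn upward and the other downward. The tallest *Ebf1* bar, 118 CPM in B cells, has 8.35 CPM in white adipocytes opposite it, and the *Ebf2* peak with 41.0 CPM in beige adipocytes has 3.17 CPM in APC1.

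*Ebf2* was as high in APC1 as in beige adipocytes, at 411 ± 55.2 CPM in beige adipocytes and 409 ± 114 CPM in APC1, a difference far inside the spread. White adipocytes followed at 287 ± 22.3 CPM, endothelial cells at 118 ± 100 CPM and APC2 at 84.3 ± 50.3 CPM, and B cells had 9.56 ± 16.4 CPM. Its highest peak in beige adipocytes was not its highest in APC1. The highest in beige adipocytes, 182200 bases into the gene, had 41.0 ± 17.4 CPM there, 20.7 CPM in white adipocytes and 3.17 CPM in APC1. The highest in APC1, 124545 bases in, carries the palindrome and was open in all of them. It had 44.6 ± 42.7 CPM in APC1, 38.3 CPM in beige adipocytes and 29.3 CPM in the white ones, differences inside the APC1 spread.

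*Ebf3* stood at 382 ± 63.6 CPM in beige adipocytes and 322 ± 35.2 CPM in the white ones, a gap smaller than the beige SD. APC1 followed at 227 ± 119 CPM, endothelial cells at 222 ± 104 CPM and APC2 at 207 ± 74.5 CPM, and B cells had 23.4 ± 9.07 CPM. *Zfp516* had its highest mean in macrophages at 178 ± 66.1 CPM, with the VSMC-labelled cluster (174 CPM) and APC1 (162 CPM) within the spread. White adipocytes had 112 ± 11.98 CPM of it and beige adipocytes 99.5 ± 36.9 CPM. *Ehmt1* was highest in dendritic cells at 231 ± 76.2 CPM, against 120 ± 17.7 CPM in white and 135 ± 38.0 CPM in beige adipocytes. *Tle3* had its highest mean in macrophages at 235 ± 66.1 CPM, with endothelial cells (226 CPM), B cells (218 CPM) and CD4 T cells (217 CPM) within the spread. It had 191 ± 32.4 CPM in white and 187 ± 47.4 CPM in beige adipocytes. It was lowest in the VSMC-labelled cluster at 86.8 ± 27.4 CPM, with APC1 next at 163 ± 44.8 CPM.

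Over the 12 cell type means, *Ebf2* and *Prdm16* were the most alike pair of members (r = 0.92), followed by *Ebf2* and *Ebf3* (r = 0.88) and by *Ebf3* and *Prdm16* (r = 0.86). Among 15890 genes, *Wdr93* (r = 0.97) was most like *Prdm16*, *Slc16a12* (r = 0.90) most like *Ebf1*, *Dnah3* (r = 0.97) most like *Ebf2* and *Trmt9b* (r = 0.99) most like *Ebf3*. *Arhgef10l* (r = 0.91), *Lamp1* (r = 0.92) and *Galnt11* (r = 0.95) were most like *Zfp516*, *Ehmt1* and *Tle3*. These are correlations of log2(CPM + 1) over cell types of the same mice and share their depth.

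Beige and white adipocytes of the same mouse were compared next, to see which members separate the thermogenic cells from the white ones. *Ebf2* and *Ebf3* were higher and *Ebf1* was lower in beige adipocytes, whereas *Ehmt1*, *Zfp516* and *Tle3* did not pass the test. *Ebf2* ranged from 315 to 518 CPM in beige (median 403) and from 231 to 315 CPM in white adipocytes (median 287). It was higher in the beige library of 19 of 19 mice, with a log2 fold change of 0.47 ± 0.05 (SE, adjusted p = 1.6e-12, edgeR quasi-likelihood test). *Prdm16*, a known marker of beige adipocytes and given without a test, ranged from 358 to 821 CPM in beige (median 543) and from 293 to 428 CPM in white adipocytes (median 342), a log2 difference of 0.59 ± 0.05 that was positive in 19 of 19 mice. *Ebf3* was higher in 15 of 19 mice (log2 fold change 0.19 ± 0.06, adjusted p = 0.0050), and *Ebf1* was lower in 17 of 19 mice (−0.15 ± 0.05, adjusted p = 0.0082).

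*Ehmt1* differed by 0.12 (95% interval −0.03 to 0.27), *Zfp516* by −0.10 (−0.26 to 0.06) and *Tle3* by −0.02 (−0.16 to 0.12) on the log2 scale. The test called 30.5% of the 10701 genes tested in this comparison, so 3 of the 6 tested members is not far from that background, and a cluster contrast is no independent test of its own counts. With peaks near the gene start alone, none of the 3 called members passed. By single peaks, of which 16% were called, the *Ebf2* peak 182200 bases into the gene was higher in beige adipocytes, in 17 of 19 mice (0.92 ± 0.13, adjusted p = 1.5e-09). The *Ebf1* peak 193901 bases into the gene was lower in beige adipocytes in 16 of 19 mice (−0.54 ± 0.17, adjusted p = 0.013 by edgeR), averaging 14.4 CPM there and 27.2 CPM in the white libraries.

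**Figure D3:**
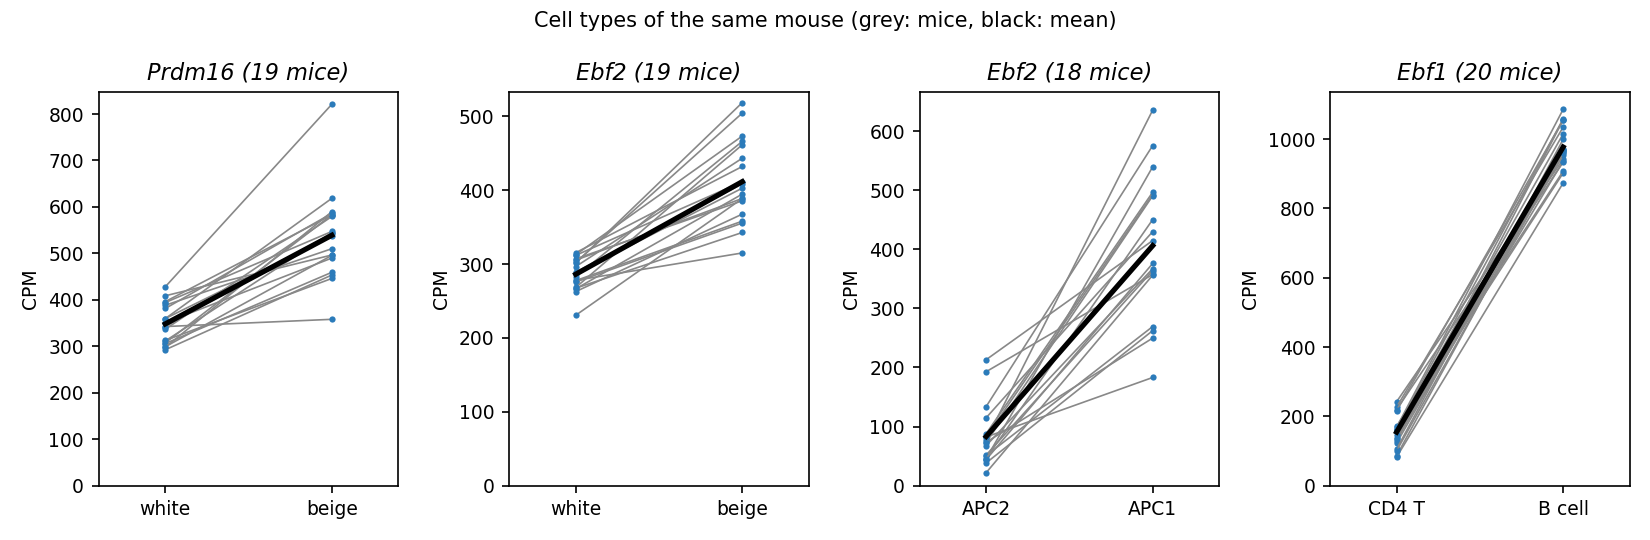
CPM of a member in 2 cell types of the same mouse, with a grey line per mouse and a black line for the mean. *Prdm16* and *Ebf2* are higher in beige than in white adipocytes in 19 of 19 mice, *Ebf2* is higher in APC1 than in APC2 in 18 of 18 mice, and *Ebf1* is higher in B cells than in CD4 T cells in 20 of 20 mice.

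Lists of related genes were read beside the members in the same comparison. They were chosen with earlier results of these data known, and the clusters were made from these same counts. The paper also names *Ucp1* and *Pank1*, both on the thermogenic list, and *Ppargc1b*, on the partner list, among its top genes of beige adipocytes. It further reports high beige accessibility for *Ppara*, *Dio2*, *Kcnk3*, *Acot11* and *Ppargc1a*. *Otop1* and *Cidea* it places late on its adipocyte trajectory. The counts below are therefore a description and no independent test. Of 16 thermogenic genes, 15 were tested and 15 were higher in beige adipocytes, with a median log2 fold change of 0.98 against 0.01 over all genes, and *Otop1*, a proton channel gene, at 1.83, was the highest. Of 20 genes for PRDM16 partners, 4 were higher and 4 lower. The coactivator genes *Ppargc1b* (0.66) and *Ppargc1a* (0.62) and the C/EBP gene *Cebpb* (0.42) were among the higher ones. *Mecom*, a close relative of *Prdm16* (−0.29), *Cebpa* (−0.27) and *Zfp423*, which encodes an EBF-binding factor that maintains white fat identity (−0.19), were among the lower ones. *Aes*, the symbol used here for *Tle5*, was higher (0.50) as the single call among the 3 tested EBF and TLE relatives.

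APC1 was compared with APC2 and with white adipocytes. The APC2 label is the authors', and its markers summed to 543 CPM for mural and 207 CPM for progenitor genes. *Ebf2*, which the authors used to mark APC1 and which is given without a test, ranged from 183 to 635 CPM in APC1 (median 395) and from 21.9 to 213 CPM in APC2 (median 73.1). Its log2 difference was 2.44 ± 0.16 and it was higher in APC1 in 18 of 18 mice. *Ebf1* was the single tested member called between APC1 and APC2 by edgeR, higher in APC1 in 11 of 18 mice (0.25 ± 0.10, adjusted p = 0.015). That fit called 60.6% of 668 genes, and DESeq2 gave *Ebf1* an adjusted p of 0.053.

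Against white adipocytes, *Prdm16* was 3.80-fold lower in APC1, with 35.3 to 264 CPM against 270 to 428 CPM, no overlap and a lower value in 20 of 20 mice (log2 fold change −1.92 ± 0.13, adjusted p = 5.4e-50). *Ehmt1* (−0.91 ± 0.15), *Ebf3* (−0.70 ± 0.11) and *Ebf1* (−0.33 ± 0.08) were also lower in APC1 and *Zfp516* was higher (0.38 ± 0.12, adjusted p = 0.0043). *Tle3* differed by −0.22 (95% interval −0.45 to 0.00) and was not called, and *Ebf2*, given without a test, was 0.47 higher in APC1, in 16 of 20 mice. This fit called 58.9% of genes and 29.6% of peaks. As between APC1 and APC2, the p-values are no independent test, because the clusters were made from these same counts. *Zfp516* lost its call with DESeq2 (adjusted p = 0.25), and with peaks near the gene start *Prdm16* alone kept its call.

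B cells were compared with CD4 T cells, lymphocytes of like depth, because EBF1 is a B cell factor. *Ebf1* ranged from 873 to 1086 CPM in B cells (median 966) and from 82.6 to 242 CPM in CD4 T cells (median 159), without overlap. The difference was 6.51-fold (log2 fold change 2.70 ± 0.05, adjusted p = 5.9e-214, higher in 20 of 20 mice). *Ehmt1* (0.64 ± 0.08, 20 of 20 mice) and *Zfp516* (0.45 ± 0.08, 18 of 20 mice) were also higher in B cells, while *Tle3* differed by −0.02 (95% interval −0.13 to 0.09). Here 52.8% of genes and 53.5% of peaks were called. The clusters were made from these same counts and *Ebf1* is a B cell gene, so its p is no independent test. Among 12 tested genes for EBF1 partners and targets, 9 were higher and 2 lower in B cells, with *Pax5* at 3.43, *Fcrla* at 3.38 and *Cd24a* at 3.00, and with *Bach2* at −0.79 and *Vpreb1* at −0.56.

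The comparisons with day0RT asked which members changed during cold or CL in adipocyte nuclei, with white and beige nuclei summed. *Tle3* fell and *Ehmt1* rose, and *Prdm16*, *Ebf1*, *Ebf2*, *Ebf3* and *Zfp516* were not called in any of the treated groups. Over the 6 groups the log2 fold change ran from −0.26 to −0.05 for *Ebf1*, from −0.19 to 0.15 for *Ebf2*, from −0.01 to 0.14 for *Ebf3* and from 0.12 to 0.25 for *Zfp516*. All these comparisons share the 3 day0RT mice, which were taken before any intervention. No group was given vehicle or kept untreated at room temperature for the same days. The part of injection, handling and elapsed days in these values was not tested. Median counts per adipocyte nucleus were 1941 in day0RT. They were 1723, 3489.5 and 2626 in day1C, day3C and day7C, and 1496, 3012.5 and 3546 in day1CL, day3CL and day7CL. Depth per nucleus thus differed between groups, and its part in these values was not tested. Calls over all 14408 genes tested were 0.34% in day1C, 1.67% in day3C, 5.08% in day7C, 2.58% in day1CL, 4.77% in day3CL and 7.75% in day7CL. They were 2.33% for the mean of the cold groups and 6.41% for the mean of the CL groups.

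*Tle3* stood at 233, 276 and 223 CPM in the 3 day0RT mice. The cold mice had 222, 218 and 187 CPM at day 1, 157, 178 and 190 CPM at day 3, and 134, 158 and 182 CPM at day 7. The CL mice had 128, 168 and 168 CPM at day 1, 203, 183 and 198 CPM at day 3, and 172, 169 and 194 CPM at day 7. Every treated mouse lay below every day0RT mouse, by a margin of under 1 CPM for the highest of them. The share of all genes that separate in this way was not counted. The fall passed the test in day1CL (log2 fold change −0.52 ± 0.14, adjusted p = 0.020), day3C (−0.45 ± 0.11, 0.019), day7C (−0.56 ± 0.12, 0.0011) and day7CL (−0.38 ± 0.11, 0.026). It did not in day1C (−0.19, 0.63) or day3CL (−0.26, 0.17). The mean over cold groups was −0.40 (adjusted p = 0.012) and over CL groups −0.39 (0.0089).

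**Figure D4:**
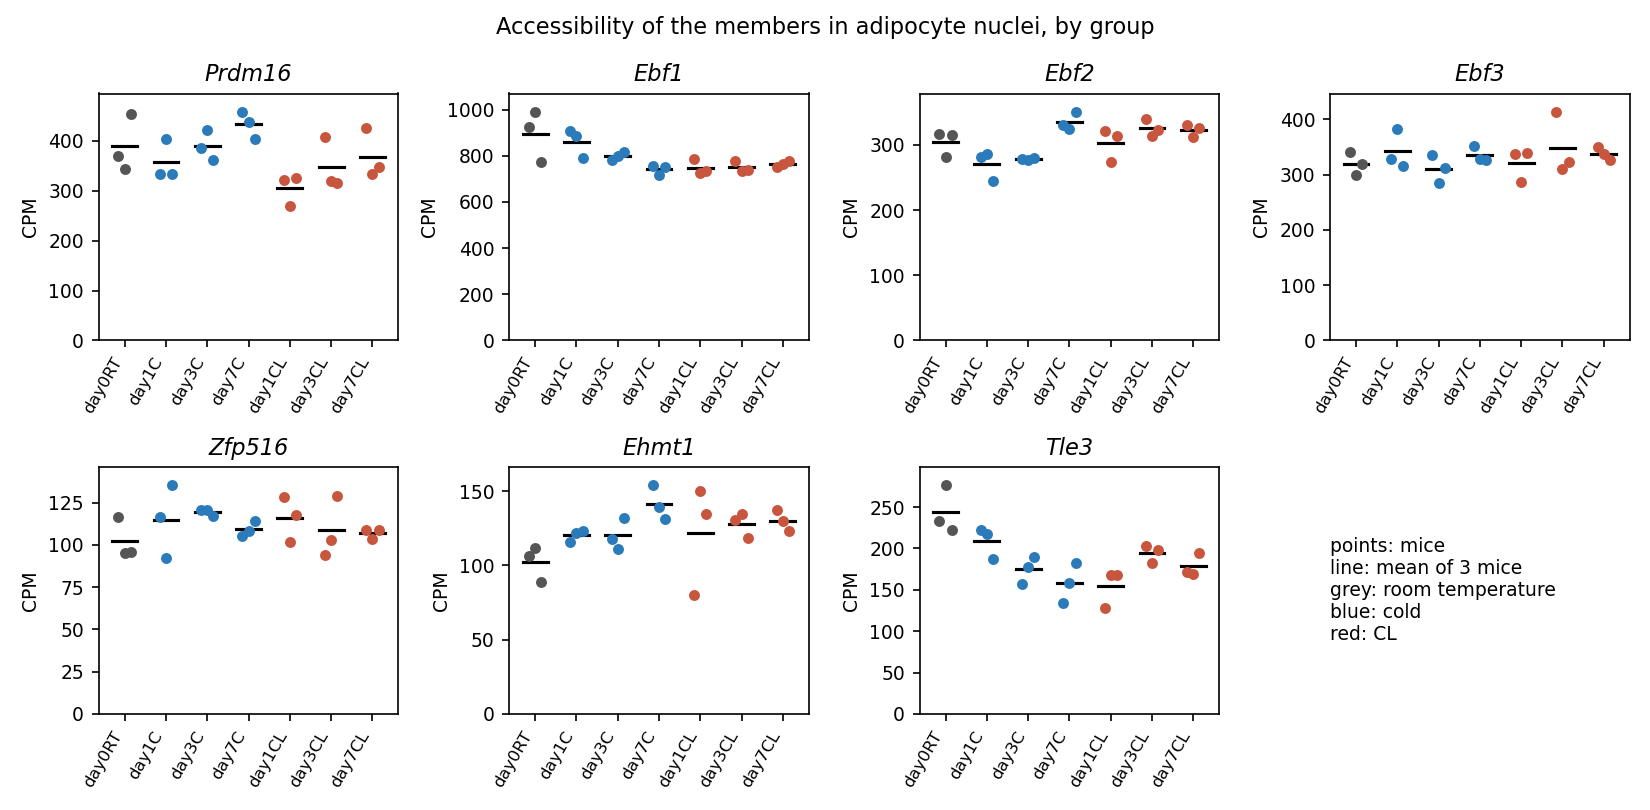
CPM of each member in adipocyte nuclei by group, with a point per mouse, a line at the mean of 3 mice and each y axis starting at 0. *Tle3* falls from a mean of 244 CPM at day0RT to 158 CPM at day7C, *Ehmt1* goes from 102 CPM to 141 CPM, and the group means of *Ebf2* and *Ebf3* lie within 271 to 349 CPM.

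The peak over the *Tle3* gene start, whose upstream part is shown above, was also lower in the treated mice. It had 48.2, 44.7 and 38.4 CPM in the day0RT mice and 16.0 to 34.0 CPM in the 18 treated mice, without overlap. It rested on 1 to 31 counts per mouse in day1CL. It was lower in day1CL (log2 fold change −1.26 ± 0.28, adjusted p = 0.0020), day3CL (−0.79 ± 0.20, 0.0081), day7C (−0.76 ± 0.22, 0.030), day7CL (−0.88 ± 0.21, 0.0037) and the CL mean (−0.98 ± 0.19, 0.00034), in tests that called 2.06%, 3.46%, 3.13%, 4.19% and 3.9% of 47835 peaks. Of these calls the CL mean passed with DESeq2 as well (adjusted p = 0.036), and the other 4 did not (0.11 to 0.29, the range over these 4).

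Without day0RT mouse 2, day7C alone of the 6 groups stayed called (−0.49, adjusted p = 0.016 by edgeR). The other 3 values called before were then −0.45 in day1CL, −0.38 in day3C and −0.30 in day7CL (adjusted p from 0.095 to 0.14 by edgeR), and all 6 values stayed negative. Without the 3 mice with few lymphocytes, day7C (−0.56) and day7CL (−0.38) stayed called, and in white adipocyte nuclei alone day3C, day7C and day7CL did. Without day1CL mouse 3, and in adipocyte nuclei with at least 2000 counts, the day1CL call was lost. Without the 2 mice with under 100 adipocyte nuclei, day1CL rested on mouse 3 alone, at −0.50. The start peak was also more open in lymphocytes (57.4 CPM in B cells, 62.6 CPM in CD4 T cells) than in white adipocytes (26.8 CPM). The 6 B cell markers summed to 94.9 to 150 CPM in the adipocyte nuclei of day0RT, 70.7 to 80.2 CPM in day1CL, 81.6 to 91.7 CPM in day7C and 118 to 128 CPM in day7CL, and none was at 0. *Pax5*, itself among these markers, was lower there by edgeR in day1CL (−1.11, adjusted p = 0.00027) and day7C (−0.56, 0.026). Its mean went from 81.6 CPM in day0RT to 41.5 CPM in day1CL and 53.8 CPM in day7C. The mean of the marker sum went from 118 CPM to 76.1 CPM and 86.4 CPM in the same groups. Most of the lower sum thus came from *Pax5*, so the sum and *Pax5* are not separate signs. The part of lymphocyte DNA in the *Tle3* result was not tested.

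*Ehmt1* stood at 106, 112 and 88.6 CPM in the day0RT mice. In the cold it had 116, 122 and 123 CPM at day 1, 118, 111 and 132 CPM at day 3, and 154, 139 and 131 CPM at day 7. Under CL it had 80.2, 150 and 135 CPM at day 1, 130, 134 and 119 CPM at day 3, and 137, 130 and 123 CPM at day 7. Day1C, day3CL and both groups at day 7 did not overlap with day0RT, and day1C among them was not called. These groups share the day0RT mice, and the share of all genes without overlap was not counted, so this is a description. The rise passed the test in day7C (log2 fold change 0.53 ± 0.14, adjusted p = 0.0085), day7CL (0.48 ± 0.13, 0.015), day3CL (0.42 ± 0.13, 0.048) and the CL mean (0.45 ± 0.12, 0.013), and not in the cold mean (0.37, 0.088). The day3CL call held in 10 of its 32 alternatives, and with DESeq2 day7C alone of the 6 groups was called (0.53, adjusted p = 0.023), at adjusted p = 0.15 in day3CL and 0.076 in day7CL.

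The called *Ehmt1* peaks were 2 intronic ones and 1 over a coding exon, all with few counts. The peak 118946 bases into the gene had 4.99, 0 and 5.48 CPM in the day0RT mice and 21.03, 15.3 and 13.7 CPM in day7C, and the peak 69046 bases in had 8.31, 2.79 and 0 CPM and then 16.0, 13.0 and 11.9 CPM. They were called in day7C (1.90 and 2.17), from 0 to 6 counts per day0RT mouse, and neither was with DESeq2 (adjusted p = 0.17 and 0.20). The coding exon peak, 113284 bases in, had 3.32, 8.37 and 5.48 CPM in day0RT and 12.2, 12.3 and 14.9 CPM in day3CL, without overlap (1.33 ± 0.42, adjusted p = 0.049 by edgeR). DESeq2 gave this peak no adjusted p in day3CL. With peaks near the gene start alone *Ehmt1* had no call, and without day0RT mouse 3 it had none either (day7C 0.41, adjusted p = 0.18; day7CL 0.35, 0.23; day3CL 0.28, 0.40).

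**Figure D5:**
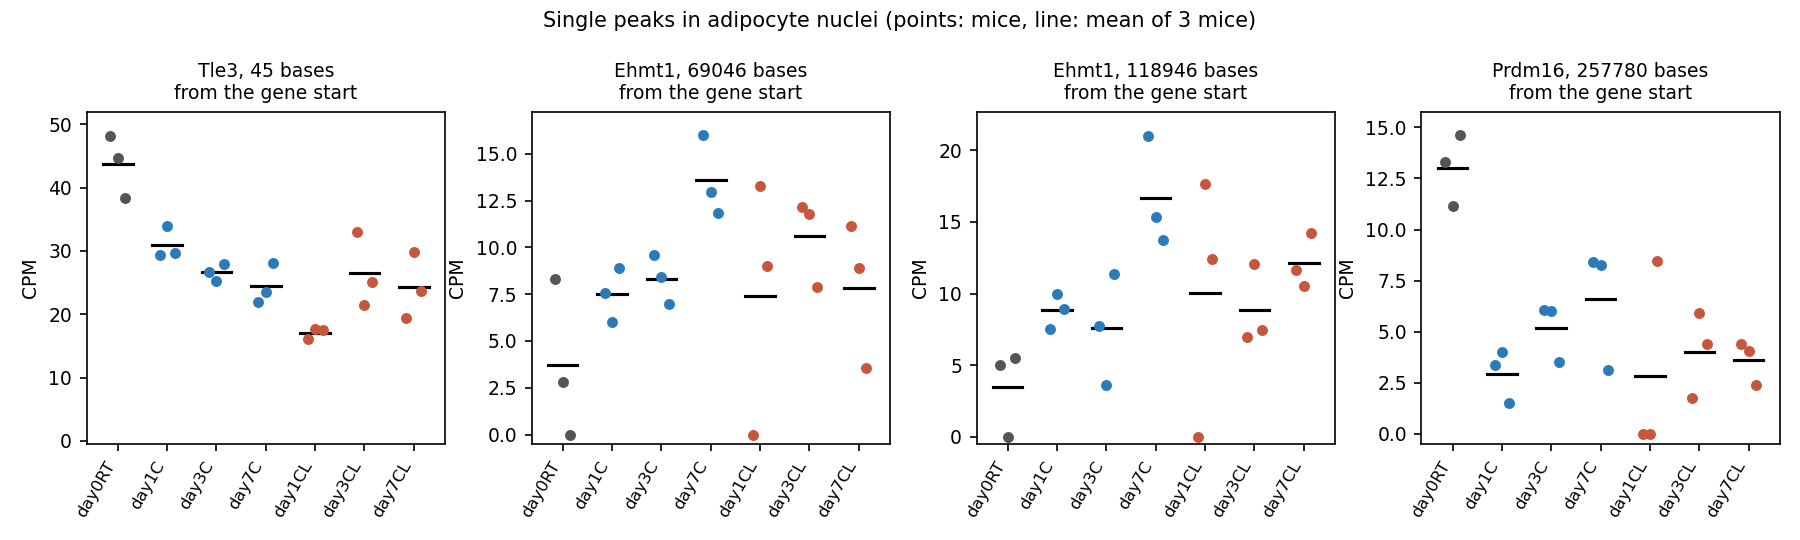
CPM of 4 single peaks in adipocyte nuclei by group, with a point per mouse and a line at the mean of 3 mice. The peak over the *Tle3* start is lower in all 18 treated mice than in the 3 day0RT mice, the 2 *Ehmt1* peaks include mice at 0, and the *Prdm16* peak 257780 bases into the gene drops from 13.0 CPM at day0RT.

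*Prdm16* as a whole gene showed no call, and its log2 fold changes ran from −0.35 in day1CL to 0.14 in day7C. It stood at 371, 343 and 453 CPM in day0RT, at 458, 438 and 403 CPM in day7C and at 425, 334 and 347 CPM in day7CL, and these ranges overlapped. The log2 fold change was 0.14 in day7C (95% interval −0.07 to 0.35) and −0.03 in day7CL (−0.24 to 0.17). In white adipocyte nuclei alone it was −0.01 in day7C and −0.07 in day7CL. The beige share of adipocyte nuclei was 9.11% in day0RT, 29.3% in day7C and 20.5% in day7CL, and its part in the summed values was not tested. An intronic *Prdm16* peak, 257780 bases into the gene, had 13.3, 11.2 and 14.6 CPM in day0RT and 8.46 CPM or less in every treated mouse. It was lower for the cold mean (−1.51 ± 0.42, adjusted p = 0.031, with 1.43% of peaks called) and the CL mean (−1.34 ± 0.40, 0.031), from 0 to 26 counts per mouse. With DESeq2 the cold mean was not called (0.38), and the CL mean was given no adjusted p. The peak over the *Prdm16* gene start had 15.0, 16.7 and 23.7 CPM in day0RT and 17.4, 7.50 and 10.5 CPM in day3CL, ranges that overlapped. It was lower there by edgeR (−1.02 ± 0.31, adjusted p = 0.035) and was not called by DESeq2 (adjusted p = 0.50). With peaks near the gene start alone, *Prdm16* was called in day3CL (−0.64, adjusted p = 0.031 by edgeR) and was below 0 in 6 of 6 treated groups.

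The EBF genes and *Zfp516* passed no test as whole genes. *Ebf2* stood at 317, 282 and 315 CPM in day0RT and 331, 324 and 351 CPM in day7C, a log2 fold change of 0.15 (95% interval −0.05 to 0.34). *Ebf3* stood at 341, 299 and 319 CPM and then 352, 329 and 326 CPM (0.09, −0.12 to 0.29). *Ebf1* stood at 926, 991 and 773 CPM in day0RT and 754, 716 and 752 CPM in day7C (−0.23, −0.40 to −0.06, adjusted p = 0.11), and for the CL mean at −0.21 (adjusted p = 0.073). Without day0RT mouse 3, *Ebf1* passed in day7C (−0.34, adjusted p = 0.035) and for the CL mean (−0.32, 0.023). *Zfp516* stood at 116, 94.9 and 95.9 CPM in day0RT and 105, 108 and 114 CPM in day7C (0.12, −0.15 to 0.40).

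Single EBF peaks passed from few counts. Of 121 member peaks tested in these fits, 2 were called in day1CL, 5 in day3CL, 4 in day7C and 5 in day7CL. The cold mean had 2 calls and the CL mean 5. Over all peaks the called shares were 2.06%, 3.46%, 3.13%, 4.19%, 1.43% and 3.9% in the same order. Member peaks were thus called about as often as peaks in general. The *Ebf3* peak 16449 bases into the gene had 3.32, 5.58 and 3.65 CPM in day0RT and 16.0, 8.84 and 16.4 CPM in day1CL (1.98 ± 0.52, adjusted p = 0.018). The *Ebf2* peak 184378 bases into the gene had 6.65, 0 and 2.74 CPM in day0RT and 10.9, 8.25 and 14.4 CPM in day7C (1.76 ± 0.53, adjusted p = 0.036). The *Ebf2* peak 57913 bases in was lower for the cold mean (−1.34 ± 0.39, adjusted p = 0.048), from 11.6, 14.0 and 14.6 CPM in day0RT. With DESeq2 the adjusted p was 0.30 and 0.37 for these 2 *Ebf2* calls. The *Ebf3* peak rested on 1 to 29 counts per mouse in day1CL. DESeq2 gave it no adjusted p there, and for the CL mean an adjusted p of 0.24. No member peak was called in day1C or day3C, where 0.213% and 1.28% of all peaks were.

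Of the 16 thermogenic genes, 9 were higher in adipocyte nuclei of day7C and 6 in day7CL, and none was lower, where 5.08% and 7.75% of all genes were called in either direction. *Ucp1*, the uncoupling protein gene, was highest in day7C (1.70), followed by *Dio2* (1.29) and *Otop1* (1.18). Of the 20 PRDM16 partner genes, *Pparg* (0.44) and *Ppargc1a* (0.45) were higher and *Cebpa* (−0.59) lower in day7CL, and *Cebpa* (−0.49) and *Zfp423* (−0.38) were lower in day7C.

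CL and cold were compared at the same day, and no member differed by the edgeR test at day 1, day 3 or day 7, where 0.923%, 1.46% and 0.111% of genes were called. DESeq2 also called 0, and 3 of the member differences had an unadjusted p under 0.05 by edgeR, with 7 members tested at each day. Over all 14408 genes tested, 1840, 1739 and 1226 had such a p at day 1, day 3 and day 7. The difference closest to the threshold by adjusted p was that of *Ebf2* at day 3 (0.24, 95% interval 0.06 to 0.41, adjusted p = 0.19). By peaks, 0.458%, 1.79% and 0.023% were called. The *Prdm16* peak 18833 bases into the gene was lower under CL at day 3, at 6.95, 6.96 and 5.27 CPM against 11.7, 20.5 and 14.9 CPM in the cold (−1.08 ± 0.29, adjusted p = 0.019), and DESeq2 did not call it (adjusted p = 1.00).

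In B cells 1 member passed the test, and *Ebf1* did not. *Ebf1* stood at 970, 1058 and 1055 CPM in day0RT, and its log2 fold changes ran from −0.13 in day1CL to 0.01 in day1C. The calls over all 11485 genes were 0.575% in day1C, 0% in day3C, 0.0174% in day7C, 2.7% in day1CL, 0% in day3CL and 1.37% in day7CL, with 0.113% for the cold mean and 1.31% for the CL mean. *Prdm16* was the single member called, in day1CL, at 24.4, 27.6 and 19.8 CPM against 7.39, 4.18 and 11.6 CPM in day0RT (1.61 ± 0.44, adjusted p = 0.023). These values rest on 1 to 17 counts per mouse. The call was lost with DESeq2 (adjusted p = 0.19) and without any one of day0RT mouse 1, day0RT mouse 2, day1CL mouse 1 or day1CL mouse 2 (0.053 to 0.20). The adipocyte markers in these B cell nuclei summed to 152 to 183 CPM in day0RT and 152 to 170 CPM in day1CL.

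In APC1, with 0 to 245 counts per member and mouse, 5 members were tested and edgeR called none of them in any of the 8 comparisons, where at most 0.0689% of genes were called and in the others 0%. DESeq2 also called 0, and 5 member differences had an unadjusted p under 0.05 by edgeR. Over all 1452 genes tested, 74 to 114 had such a p in each of the 8 comparisons. *Ebf2* ranged from 262 to 415 CPM in day0RT, 430 to 497 CPM in day7C and 269 to 575 CPM in day7CL, and its log2 fold change for the CL mean was 0.46 (95% interval 0.01 to 0.91, unadjusted p = 0.047 from the same edgeR fit, adjusted p = 0.63). *Zfp516* in day1CL was −1.40 ± 0.43 (unadjusted p = 0.0011, adjusted p = 0.52).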

How the data were processed

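Nuclei of iWAT from 21 mice were profiled by single nucleus ATAC-seq in pooled lanes. Per the labels, the authors used Bowtie2, SAMtools, MACS2 and Signac with mm10. The authors deposited a peak by nucleus matrix of binarized counts, in which an entry of 1 marks a nucleus with a read in a peak, and a table that gives each nucleus a mouse, group and cell type. The labels of the lanes name no mouse, so grouping rests on that table. Entries were summed per mouse and cell type over the peaks on each gene body and 2000 bases upstream (GENCODE annotation), for libraries of at least 10 nuclei. Depth ran from 1340376 to 6916698 counts per mouse, and binary entries limit precision where nuclei are few.

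The test was the quasi-likelihood F test of edgeR 4.0.16 (TMM factors, filterByExpr with a minimum count of 10, R 4.3.3) over all genes or peaks, with Benjamini-Hochberg adjustment and a threshold of 0.05. SE is the log2 fold change over the square root of F. Treated groups were compared with day0RT in a fit of all groups, and cell types of the same mouse with the mouse as a block. Intervals are 95%. DESeq2 1.42.0 and the other alternatives are given in the closing section, and scripts were tested on simulated data. Same-numbered mice did not deviate together (median r 0.0002), so the replicate number was not used as a pair. The paper reports that its experiments were run in independent batches. Batch was not a term in the main fits, and its part was not tested.

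The members and gene lists were chosen with earlier results of these data known. Every member that passed the filter was tested in every comparison, and the text gives values for those it describes. Named peaks were those past the threshold (at most 3 of largest change per member, direction and comparison), the peak over the gene start and the highest peak in a cell type. Named genes of a list were at most the 4 of largest change per direction, and like genes those of highest r.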

Additional observations from a re-analysis of the deposited data

Results flagged for a closer look

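*Tle3* in the VSMC-labelled cluster had a mouse far from the others, at 152 CPM against a median of 83.3 CPM over the 10 mice with enough nuclei. Chance marks about 1 in 20 such groups. The *Prdm16* peak 18833 bases into the gene differed between the stimuli, with a log2 difference of −1.08 between CL and cold at day 3 in adipocyte nuclei by edgeR.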

How the results depend on the processing

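With DESeq2 in place of edgeR, the members called in B cells went from 1 to 0, those between APC1 and APC2 from 1 to 0 and the named member peaks called from 21 to 13. *Ehmt1* then went from 3 to 1 and *Tle3* from 4 to 3 of the 6 treated groups called in adipocytes. With peaks near the gene start alone, the calls were 0 in B cells, 0 between beige and white adipocytes (3 in the report) and 1 between APC1 and white adipocytes (5 in the report), and the *Ehmt1* difference turned to −0.059 in day3CL and −0.096 in day7CL. Without a filter on low counts, 6 members in place of 3 were called between B cells and CD4 T cells. The cell type of highest level was the same for 3 of 7 members by the percent of nuclei with a count and for 3 by peaks near the gene start. Leaving out 1 mouse at a time gave 0 to 1 called members in B cells. The cause was not tested. Of the counts of calls under the alternatives, 223 stayed within 1.5 times and 13 did not, and of the member values 654 kept direction and call, 85 lost the call and 2 turned. Same-numbered mice did not deviate together (r from −0.12 to 0.12 over 63 pairs), and the replicate block left 2 members called in adipocytes. Leaving out the 3 mice with few lymphocytes, or the 2 with under 100 adipocyte nuclei, was chosen after seeing the data. Few nuclei limit the values in APC1 and single peaks.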
